A study of Saccharomyces cerevisiae with 9 samples.

Results

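The small nucleolar RNA (snoRNA) genes of budding yeast were followed through a chromatin immunoprecipitation experiment followed by sequencing (ChIP-seq). They were taken as all identifiers, in both tables of windows, that start with snR and a digit, which gave 81 of 7036 genes. The rule used the names alone and no measured value, though it was chosen with earlier results of these data known. All 81 were found in the R64 gene table of RefSeq and all 81 passed the filter on low counts at promoters and at gene bodies.

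The experiment pulled down Rvb1, Rvb2 or Pgk1, each carrying a tandem affinity purification (TAP) tag in its own W303 strain, with rabbit IgG from sonicated lysate. The groups were 2 Rvb1 pulldowns, 2 Rvb2 pulldowns, 2 pulldowns of Pgk1, the glycolytic enzyme that served as the control protein, and 1 input (lysate chromatin before the pulldown) for each strain. All 9 libraries came from log-phase cells left without glucose for 10 min, so no unstarved state enters any comparison, and a strain without a tag was not analysed here. The labels do not give the tagged end of the proteins. Whether the pulldowns of 1 strain had separate cultures behind them is not in the labels, and the spread that p-values rest on may be technical.

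Rvb1 and Rvb2 are related AAA+ ATPases that work together in chromatin remodellers such as INO80 and SWR1. With Tah1 and Pih1 they form the R2TP complex, a chaperone that assembles box C/D snoRNA-protein particles. Box C/D snoRNAs guide methylation of ribosomal RNA and box H/ACA snoRNAs guide its pseudouridylation, and a few of them (U3, U14, snR10, snR30) are needed for cutting the ribosomal RNA precursor. Most yeast snoRNA genes are transcribed by RNA polymerase II from a promoter of their own, while others are cut from a shared precursor or from the intron of a host gene.

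By class the set held 47 box C/D genes, 29 box H/ACA genes and 5 genes of spliceosomal RNAs that share the name prefix (snR6 or U6, snR7-L and snR7-S of U5, snR14 or U4, and snR19 or U1), for which the name snoRNA does not hold. By arrangement it held 54 genes with a promoter of their own, 17 in polycistronic clusters, 8 inside introns of host genes and 2 transcribed by RNA polymerase III (snR6 and snR52). Values are reads in windows of 500 bp, given as CPM (the read count scaled to a fixed library size) on TMM-scaled library sizes. Most of these genes are shorter than such a window, so a gene body window also covers sequence beside the gene. By the R64 gene positions, 21 members have another member within 1 kb, and their windows can share reads. snR7-L and snR7-S had identical counts in both tables, so the counts and medians over members hold this measurement under both names, and the promoter window of snR67 had the same counts as that of RML2.

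Library totals ran from 782398 to 2533445 reads at gene bodies and from 806134 to 2516799 at promoters in the pulldowns, against 4342277 to 4701031 in the inputs. A window of this size can hold about 1148 distinct reads of 75 bases, and the median member stood at 53.2% to 56.7% of that ceiling in inputs and at 9.76% to 30.4% in pulldowns, and a ceiling can compress differences. The Pgk1 pulldowns stood apart from each other. Pulldown 2 lay close to its input at members, with a median log2 difference of 0.05 at gene bodies, and pulldown 1, the library with the fewest reads, had 0.35. The part of depth in this was not tested. Pgk1 CPM are given per library, and a single Pgk1 log2 value or median pools pulldown 1 with a pulldown 2 that lay close to input. Counts of the Rvb1 and Rvb2 inputs were closer than counting noise without a ceiling would give. Their chi-square per degree of freedom was 0.607 at promoters and 0.558 at gene bodies, above the 0.458 and 0.449 that the ceiling alone would give. Since the labels give them different strains, both entered the fits. Averaging them was tried only for the comparisons with the Pgk1 pulldowns. The fits against the 3 inputs count both as separate libraries, and this was not checked by averaging.

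With library sizes scaled within the gene body windows, the snoRNA genes were recovered somewhat above input at gene bodies in all 6 pulldowns. The median log2 value over own input was 0.40 and 0.15 in the Rvb1 pulldowns, 0.41 and 0.21 in the Rvb2 pulldowns, and 0.35 and 0.05 in the Pgk1 pulldowns. Over all 7035 gene body windows the corresponding medians lay between -0.03 and 0.01. With library totals over both windows, the member medians were 0.01 for Rvb1, 0.08 for Rvb2 and 0.05 for Pgk1. The medians of all gene body windows were then -0.30, -0.24 and -0.13, so the members stood above other windows more than above input. Members took 1.30% ± 0.114 (SD, n = 2) of the gene body reads in Rvb1 pulldowns, 1.31% ± 0.119 (SD, n = 2) in Rvb2 pulldowns and 1.22% ± 0.142 (SD, n = 2) in Pgk1 pulldowns, against 1.12% ± 0.00989 (SD, n = 3) in inputs. All 4 Rvb pulldowns lay above their own input for 50 of the 81 members, against 31.9% of all windows, and both Pgk1 pulldowns did for 50 of the 81, against 30.5% of all windows.

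**Figure D1:**
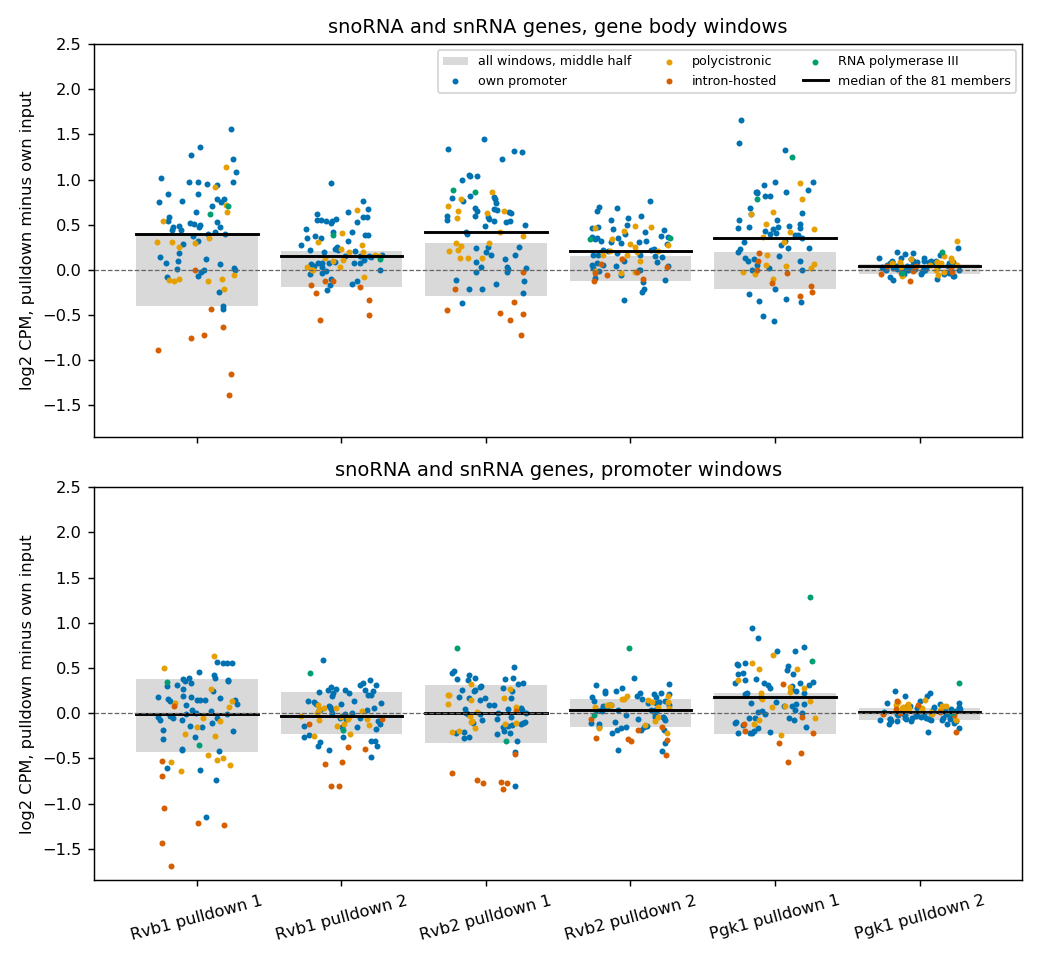
Each point is 1 of the 81 members in 1 pulldown library, as log2 CPM minus that of the same strain's input (y axis), at gene bodies (top) and promoters (bottom), coloured by gene arrangement. Grey boxes span the lower to the upper quartile of all windows and black lines mark the member medians, which at gene bodies lie between 0.05 in Pgk1 pulldown 2 and 0.41 in Rvb2 pulldown 1, with intron-hosted genes as the lowest points of both Rvb1 pulldowns.

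No single member passed the test against its own input in the main fit, which did not pair libraries by replicate number. In edgeR's quasi-likelihood test with Benjamini-Hochberg adjustment over all windows, 0 members were called at gene bodies for Rvb1, Rvb2 or Pgk1, where 0.0711%, 0% and 0.0426% of all windows were called at an adjusted p under 0.05. At an unadjusted p under 0.05 there were 16 members for Rvb1 (11 higher and 5 lower), 6 for Rvb2 (all higher) and 1 for Pgk1 (higher), against 20.9%, 2.57% and 0.91% of all windows. DESeq2 likewise called 0 members in each. With the replicate number as a block, members were called at gene bodies for Rvb1, Rvb2 and Pgk1, as given below with the dependence on processing. Each input is a single library in this fit, which left 3 residual degrees of freedom. Without Rvb1 pulldown 2, which leaves 1 library in that group, the Rvb1 count was above 0.

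The comparison was repeated, by a choice made after seeing the data, with the 3 inputs as 1 group and 5 residual degrees of freedom. There the Rvb1 pulldowns passed the test at 41 members, 35 higher and 6 lower. Among all gene body windows 48.9% were called in that fit, 23.2% higher and 25.7% lower. In the Rvb2 and Pgk1 pulldowns 0 members were called, with 0% of all windows. At an unadjusted p under 0.05 there were 44 members for Rvb2 (42 higher and 2 lower) and 11 for Pgk1 (all higher), against 30.4% and 8.54% of all windows. The Rvb1 count was 0 without Rvb1 pulldown 1, 53 without Rvb1 pulldown 2, and 17, 18 and 19 without the Rvb1, Rvb2 and Pgk1 input. Leaving out a single pulldown raised the Rvb2 and Pgk1 counts above 0 in some fits, which leave 1 library in a group. The shares of all windows called without a library are not given here, so these counts show only how far calls moved. A difference in calls between Rvb1 and Rvb2 was not tested.

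The medians differed between gene arrangements. The 54 genes with their own promoter had a median log2 of 0.34 in Rvb1, 0.35 in Rvb2 and 0.21 in Pgk1 pulldowns over own input at gene bodies, and the 17 polycistronic genes had 0.17, 0.29 and 0.15. The 8 intron-hosted genes had -0.47, -0.20 and -0.06. In Pgk1 pulldowns 1 and 2 these medians were 0.40 and 0.05 for genes with their own promoter, 0.31 and 0.08 for polycistronic genes and -0.09 and -0.02 for intron-hosted genes. All 4 Rvb pulldowns lay above input for 39 of the 54 genes with their own promoter, for 9 of the 17 polycistronic genes and for 0 of the 8 intron-hosted genes. Over all windows the share was 31.9%. Both Rvb1 pulldowns lay below input for 16 members, the 8 intron-hosted genes among them, against 43.5% of all windows. Among the genes with their own promoter, the 23 box C/D genes had medians of 0.30, 0.31 and 0.21 in Rvb1, Rvb2 and Pgk1 pulldowns, and the 27 box H/ACA genes had 0.47, 0.45 and 0.24. In the fit against all 3 inputs, 23.2% of all windows were called higher for Rvb1. Called higher there were 29 of 54 genes with their own promoter, 5 of 17 polycistronic genes and 0 of 8 intron-hosted genes. These are descriptions, and no test was made between the arrangements. With library sizes taken from the totals over both windows, the median of all gene body windows moved to -0.30, -0.24 and -0.13, and the members stood 0.31, 0.32 and 0.18 above it, against 0.31, 0.33 and 0.18 on the TMM scale, so values near 0 have no fixed sign.

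**Figure D2:**
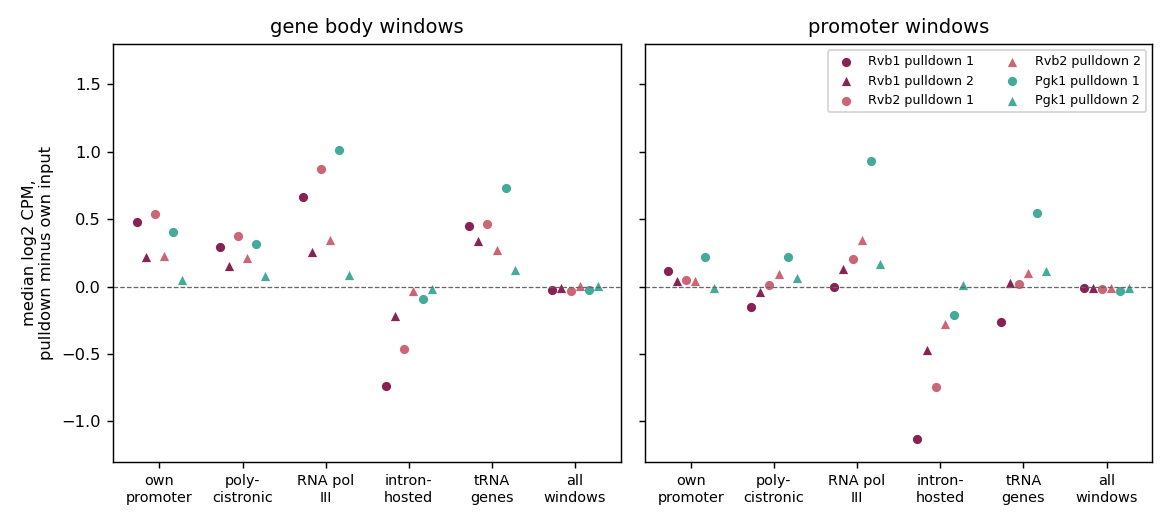
Median log2 CPM over own input (y axis) of 4 arrangements of members, of the 298 nuclear tRNA identifiers that passed the filter and of all windows, with 1 point per pulldown library. At gene bodies the genes with their own promoter lie above 0 in all 6 libraries and the intron-hosted genes below 0, and at promoters the 4 Rvb medians of the intron-hosted genes run from -1.13 to -0.28.

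snR64, a box C/D guide for the large subunit RNA that lies between the divergent TRP3 and the downstream UBA1, had the highest gene body value of all members in both Rvb proteins. It had 434 and 287 CPM in Rvb1 pulldowns, 385 and 228 CPM in Rvb2 pulldowns and 188 and 144 CPM in Pgk1 pulldowns, against 147, 141 and 136 CPM in the inputs of the Rvb1, Rvb2 and Pgk1 strains. All 4 Rvb pulldowns lay above every Pgk1 pulldown and input. Against its own input snR64 was not called. The fit against the 3 inputs was chosen after seeing the data, and 48.9% of all windows were called there for Rvb1. In that fit the Rvb1 log2 fold change was 1.35 ± 0.28 (SE), with an adjusted p of 0.00565 in edgeR's quasi-likelihood test. For Rvb2 the log2 fold change was 1.11 ± 0.28, with an adjusted p of 0.0978 in the same test. SE here comes from the test statistic and is not the spread between pulldowns of 1 protein.

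snR60, another box C/D guide for the large subunit RNA, had 278 and 216 CPM in Rvb1, 352 and 217 CPM in Rvb2 and 237 and 137 CPM in Pgk1 pulldowns, against 144, 138 and 134 CPM in the inputs, and its lowest Rvb pulldown lay below Pgk1 pulldown 1. snR51 and snR69 showed the same separation of the Rvb pulldowns from the other libraries. snR51, the last gene of the snR41 cluster, had 280.0 and 202 CPM in Rvb1, 243 and 168 CPM in Rvb2 and 133 and 125 CPM in Pgk1 pulldowns, against 127, 133 and 130.5 CPM in the inputs. snR69, a box C/D guide for the large subunit RNA, had 236 and 182 CPM in Rvb1, 261 and 192 CPM in Rvb2 and 131 and 114 CPM in Pgk1 pulldowns, against 116, 126 and 122 CPM in the inputs. For both genes the Pgk1 pulldowns lay near the inputs and the 4 Rvb pulldowns lay above them. Neither gene was called against its own input. In the fit against the 3 inputs, chosen after seeing the data, the Rvb1 log2 fold change was 0.89 ± 0.19 for snR51 and 0.79 ± 0.17 for snR69. The adjusted p in edgeR's quasi-likelihood test were 0.00601 and 0.00605, in a fit where 48.9% of all windows were called for Rvb1.

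At other members with high Rvb values Pgk1 pulldown 1 was high as well, and Pgk1 pulldown 2 lay nearer the inputs. snR48, a box C/D guide for the large subunit RNA, had 334 and 199 CPM in Rvb1, 324 and 208 CPM in Rvb2 and 233 and 137 CPM in Pgk1 pulldowns, against 129, 129 and 128 CPM in the inputs. snR11, a box H/ACA guide, had 309 and 223 CPM in Rvb1, 319 and 199 CPM in Rvb2 and 367 and 156 CPM in Pgk1 pulldowns, against 131, 135 and 139 CPM in the inputs. For snR11 Pgk1 pulldown 1 was the highest of all 9 libraries and Pgk1 pulldown 2 the lowest of the pulldowns. snR37, another box H/ACA guide, had the same pattern, with 278 and 206 CPM in Rvb1, 278 and 189 CPM in Rvb2 and 335 and 152 CPM in Pgk1 pulldowns, against 141, 134 and 133 CPM in the inputs. Over own input the log2 values of snR11 were 1.02 ± 0.55 for Rvb1, 0.93 ± 0.55 for Rvb2 and 0.90 ± 0.55 for Pgk1.

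The genes of U3, the box C/D snoRNA that pairs with the ribosomal RNA precursor, gave different values for their copies. snR17a had 353 and 233 CPM in Rvb1, 342 and 235 CPM in Rvb2 and 448 and 167 CPM in Pgk1 pulldowns, against 146, 138 and 141 CPM in the inputs. snR17b had 99.4 and 135 CPM in Rvb1, 100.2 and 117 CPM in Rvb2 and 141 and 126 CPM in Pgk1 pulldowns, against 131, 129 and 136 CPM in the inputs. All 6 pulldowns of snR17a lay above the inputs, while those of snR17b overlapped them. The difference between the copies was not tested, and both values are uncertain because the copies are nearly identical and how the authors placed reads that match both is not known from the labels or files.

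**Figure D3:**
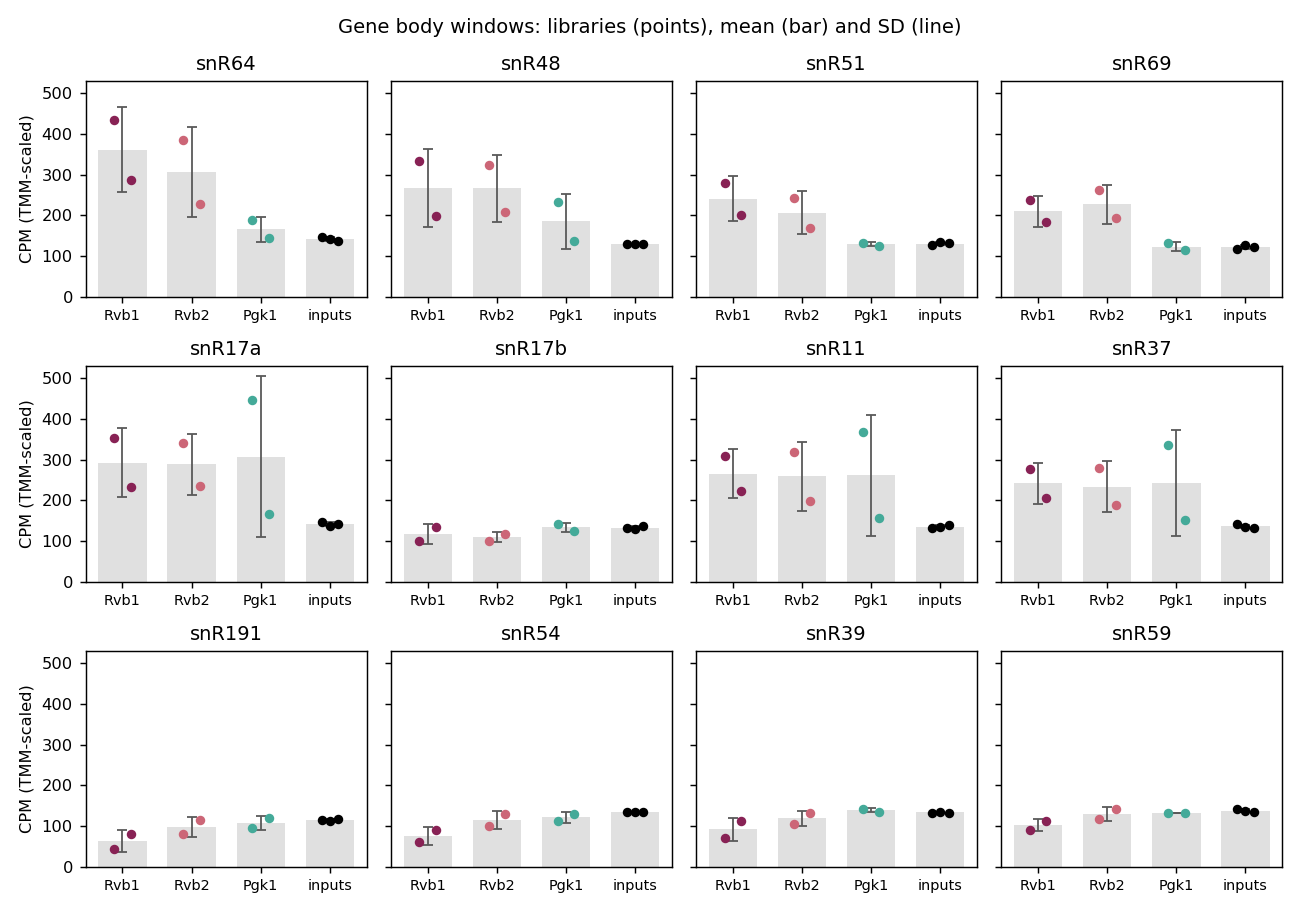
Gene body CPM (y axis, from 0) of 12 members in the Rvb1, Rvb2 and Pgk1 pulldowns and the 3 inputs, with libraries as points, means as bars and SD as lines (n = 2, 2, 2 and 3). snR64, snR51 and snR69 are highest in the 4 Rvb pulldowns, snR17a, snR11 and snR37 are highest in Pgk1 pulldown 1, and the intron-hosted snR191, snR54, snR39 and snR59 have their lowest mean in the Rvb1 pulldowns.

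Other snoRNAs with a role in cutting the ribosomal RNA precursor lay above own input in all 6 pulldowns. snR10 had 242 and 199 CPM in Rvb1, 226 and 168 CPM in Rvb2 and 259 and 136 CPM in Pgk1 pulldowns, against 135, 135 and 134 CPM in the inputs. snR30 had 236 and 177 CPM in Rvb1, 225 and 189 CPM in Rvb2 and 259 and 147 CPM in Pgk1 pulldowns, against 137, 142 and 142 CPM in the inputs. The U14 gene snR128 and its cluster partner snR190 had log2 values over own input of 0.29 and 0.38 for Rvb1, 0.59 and 0.63 for Rvb2 and 0.23 and 0.45 for Pgk1, none of them past the test.

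The polycistronic clusters differed from each other. In the snR41 cluster of 3 genes, all 3 had positive gene body values for Rvb1 and Rvb2, with a median log2 over own input of 0.69 for Rvb1, 0.47 for Rvb2 and 0.15 for Pgk1. In the snR72 cluster of 7 genes the medians were -0.01, 0.15 and 0.05. The snR57 cluster of 3 genes had 0.17, 0.32 and 0.33 and the snR67 cluster of 2 genes had 0.33, 0.48 and 0.46. Genes of a cluster lie next to each other and their windows can share reads, so they are not independent measurements.

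The lowest gene body values over own input for Rvb1 belonged to intron-hosted genes. snR191, a box H/ACA guide in an intron of NOG2, had 43.6 and 81.7 CPM in Rvb1, 80.0 and 115 CPM in Rvb2 and 95.9 and 121 CPM in Pgk1 pulldowns, against 116, 112 and 118 CPM in the inputs. snR54, a box C/D guide in an intron of IMD4, had 60.4 and 91.5 CPM in Rvb1, 99.2 and 131 CPM in Rvb2 and 112 and 131 CPM in Pgk1 pulldowns, against 135, 136 and 134 CPM in the inputs. Both Rvb1 pulldowns of snR54 lay below every other library, while for snR191 Rvb2 pulldown 1 lay between them. Neither gene was called against its own input. In the fit against the 3 inputs, chosen after seeing the data, the Rvb1 log2 fold change was -0.91 ± 0.24 for snR191 and -0.86 ± 0.16 for snR54. The adjusted p in edgeR's quasi-likelihood test were 0.00989 and 0.00535, in a fit where 48.9% of all windows were called for Rvb1. In the same fit 6 of the 8 intron-hosted genes were called lower in Rvb1 pulldowns (snR191, snR54, snR39, snR24, snR59 and snR38), against 25.7% of all windows. snR18 in EFB1 had -0.06 and snR44 in RPS22B -0.26. For Rvb2 the lowest gene body values over own input were those of snR44, -0.38 ± 0.28, and snR24, -0.30 ± 0.26. Their 8 host genes had gene body medians of -0.48 in Rvb1, -0.23 in Rvb2 and -0.04 in Pgk1 pulldowns over own input, and the windows of a host and its snoRNA can overlap.

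Of the RNA polymerase III genes, snR6 (U6) had 229 and 163 CPM in Rvb1, 265 and 182 CPM in Rvb2 and 348 and 168 CPM in Pgk1 pulldowns, against 149, 143 and 146 CPM in the inputs. snR52, a box C/D guide, had 229 and 183 CPM in Rvb1, 251 and 176 CPM in Rvb2 and 231 and 131 CPM in Pgk1 pulldowns, against 139.7, 138 and 134 CPM in the inputs. For snR6 Pgk1 pulldown 1 was the highest library. The 298 tRNA identifiers, also transcribed by RNA polymerase III, had gene body medians of 0.41, 0.39 and 0.43 over own input for Rvb1, Rvb2 and Pgk1, the last from 0.73 in pulldown 1 and 0.12 in pulldown 2. Among the spliceosomal RNA genes of RNA polymerase II, snR14 (U4) had log2 values of 0.72 ± 0.35 in Rvb1, 0.64 ± 0.35 in Rvb2 and 0.12 ± 0.35 in Pgk1 pulldowns, and snR19 (U1) had -0.11, 0.02 and 0.20. snR7-L (U5) had 0.29, 0.35 and 0.16.

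At promoter windows the snoRNA genes as a set lay near input. The median log2 over own input was -0.03 for Rvb1, 0.03 for Rvb2 and 0.08 for Pgk1, against 0.00, -0.01 and -0.02 over all 7034 promoter windows. The Pgk1 median was 0.17 in pulldown 1 and 0.01 in pulldown 2. All 4 Rvb pulldowns lay above input for 28 of 81 members, against 32.8% of all windows, and below it for 25, against 35.8% of all windows. In the test against own input 0 members were called for Rvb1, Rvb2 and Pgk1, where 0.782%, 0% and 0.0142% of all windows were called. At an unadjusted p under 0.05 there were 10 members for Rvb1 (1 higher and 9 lower), 1 for Rvb2 (lower) and 1 for Pgk1 (higher), against 24.1%, 5.36% and 1.76% of all windows, and DESeq2 called 0 members. Without pulldown 2 of the protein, which leaves 1 library in its group, the Rvb1 and Pgk1 counts were above 0. Against the 3 inputs together the Rvb1 pulldowns were called at 34 members, 14 higher and 20 lower, with 51.8% of all windows called, 25.4% higher and 26.4% lower. That count was 0 without Rvb1 pulldown 1 and 10, 13 and 13 without the Rvb1, Rvb2 and Pgk1 input. The Rvb2 and Pgk1 counts were 0, with 0% of all windows called. At an unadjusted p under 0.05 there were 18 members for Rvb2 and 7 for Pgk1, against 38% and 9.62% of all windows. Leaving out a single pulldown raised the adjusted Rvb2 and Pgk1 counts above 0 in some fits, which leave 1 library in a group.

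The lowest promoter windows again belonged to intron-hosted genes, whose promoter window can lie in the host gene. snR39, a box C/D guide in an intron of RPL7A, had 51.0 and 79.0 CPM in Rvb1, 81.5 and 109.7 CPM in Rvb2 and 109 and 133 CPM in Pgk1 pulldowns, against 139, 136 and 125 CPM in the inputs. The Rvb1 log2 fold change of snR39 was -1.11 ± 0.32 over its own input, with an adjusted p of 0.060, and -1.07 ± 0.21 over the 3 inputs, with an adjusted p of 0.00462. The 8 genes had promoter medians of -0.79 in Rvb1, -0.48 in Rvb2 and -0.07 in Pgk1 pulldowns, and both pulldowns of Rvb1 and of Rvb2 lay below input for 7 of the 8. Among genes with their own promoter snR80, a box H/ACA guide downstream of RPL12A, had the lowest Rvb1 and Rvb2 fold changes, though not the lowest value in Rvb2 pulldown 2, with 53.5 and 85.4 CPM in Rvb1, 66.2 and 108 CPM in Rvb2 and 106 and 144 CPM in Pgk1 pulldowns, against 119.7, 116 and 124 CPM in the inputs. The 7 genes of the snR72 cluster had promoter medians of -0.31 in Rvb1, -0.06 in Rvb2 and 0.07 in Pgk1 pulldowns.

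The highest promoter windows in the Rvb pulldowns were modest. snR43 and snR9, both box H/ACA guides, had log2 values over own input of 0.48 ± 0.29 and 0.47 ± 0.28 for Rvb1. snR52 had the highest promoter value in Rvb2, 0.72 ± 0.47, and in Pgk1, 0.87 ± 0.47. It had 205 and 219.6 CPM in Rvb1, 244 and 243 CPM in Rvb2 and 367 and 189 CPM in Pgk1 pulldowns, against 161, 148 and 150.0 CPM in the inputs, and all 6 pulldowns lay above the inputs. For Pgk1, snR33, a box H/ACA guide, and snR66, a box C/D guide, followed with 0.60 ± 0.26 and 0.45 ± 0.25, from 260.5 and 161 CPM for snR33 and 215 and 148 CPM for snR66 in pulldowns 1 and 2.

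The promoter and gene body windows of a gene were then set against each other, with 1 library size for both. Over all windows the pulldown over own input was higher at promoters than at gene bodies, with a median log2 difference of 0.30 for Rvb1, 0.20 for Rvb2 and 0.03 for Pgk1. Over the 81 members the median difference was 0.01 for Rvb1, -0.06 for Rvb2 and -0.03 for Pgk1. The difference was positive for 42, 32 and 35 of the 81 members, against 78.8%, 76.0% and 57.9% of all windows. In the interaction test 0 members were called, with 0.0142%, 0% and 0% of all windows called, and at an unadjusted p under 0.05 there were 0 members for Rvb1, 3 for Rvb2 and 1 for Pgk1 (all lower at the promoter), against 25.6%, 6.98% and 0.924% of all windows.

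**Figure D4:**
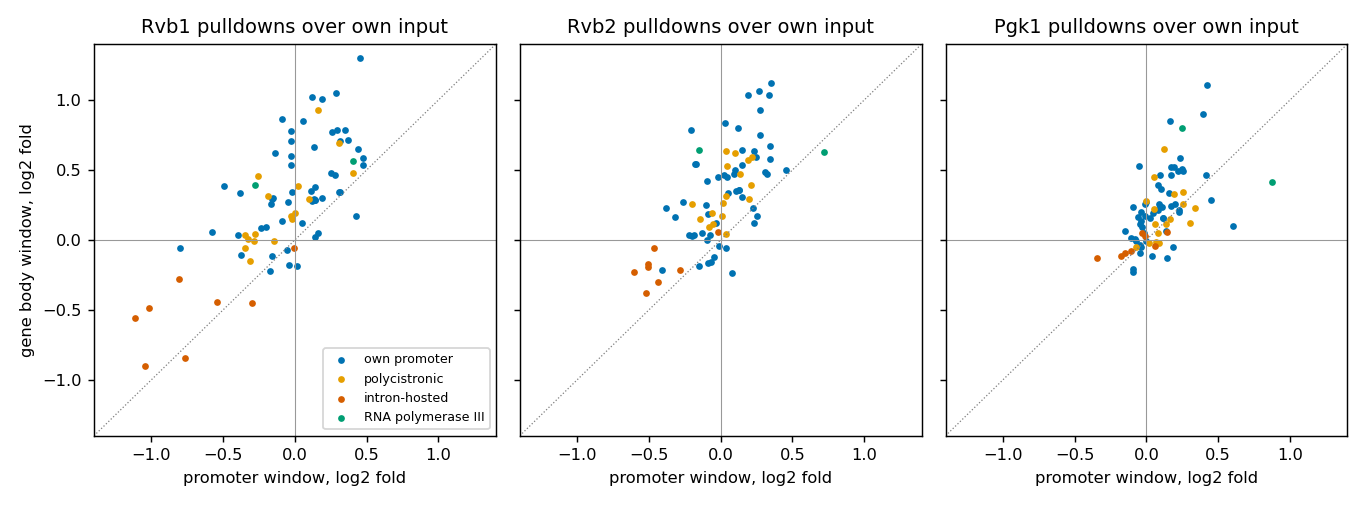
Each point is 1 member, with its log2 fold change over own input at the promoter (x axis) and at the gene body (y axis), for Rvb1, Rvb2 and Pgk1 pulldowns, coloured by arrangement, and the dotted line marks equal values. Each axis is scaled within its own table; the intron-hosted genes other than snR18 lie at the lower left for Rvb1, and the gene body values reach 1.30 for Rvb1 at snR64 while the highest Rvb1 promoter value is 0.48.

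Set against the Pgk1 pulldowns, 10 members passed the test for Rvb1 at gene bodies, 6 higher and 4 lower, where 13.8% of all windows were called, 6.7% higher and 7.08% lower. The 6 were snR64, snR51, snR69, snR70, snR31 and snR68, of which 5 are box C/D genes and snR31 is a box H/ACA gene. The 4 lower were the intron-hosted snR191, snR54, snR39 and snR59. The share of members called, 12.3%, was close to that of all windows, and the members' median was 0.06, against -0.05 over all windows. The members' median was 0.25 without Pgk1 pulldown 1 and -0.08 without Pgk1 pulldown 2, so it has no fixed sign. The spread in this fit came partly from the inputs. The gene body calls were not made with the pulldowns alone, with the Rvb inputs averaged, or with each pulldown set relative to its own input.

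snR64 had a log2 fold change over Pgk1 of 1.14 ± 0.32 for Rvb1 and 0.90 ± 0.32 for Rvb2, with adjusted p of 0.0368 and 0.417 in edgeR's quasi-likelihood test. snR51 had 0.91 ± 0.22 for Rvb1 and 0.67 ± 0.23 for Rvb2, with adjusted p of 0.0304 and 0.417. snR69 had 0.79 ± 0.20 for Rvb1 and 0.89 ± 0.20 for Rvb2, with adjusted p of 0.0314 and 0.417. For each of these 3 genes the 4 Rvb pulldowns stood above both Pgk1 pulldowns in CPM. snR70, a box C/D guide in the same cluster as snR51, had 0.62 ± 0.20 for Rvb1, snR31 had 0.45 ± 0.13 and snR68 had 0.45 ± 0.13. Among the lower genes snR191 had -0.86 ± 0.27 for Rvb1 and -0.17 ± 0.26 for Rvb2, and snR54 had -0.75 ± 0.19 and -0.09 ± 0.17. snR39 had -0.62 and snR59 -0.39 for Rvb1.

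For Rvb2 over Pgk1, 0 members were called at gene bodies and 0 at promoters, with 0% of all windows called in each. At an unadjusted p under 0.05 there were 9 members at gene bodies (8 higher and 1 lower) and 7 at promoters (2 higher and 5 lower), against 10.8% and 17.4% of all windows, and DESeq2 called 1 and 0. The Rvb1 and Rvb2 comparisons share their Pgk1 libraries, and the difference between them was not tested.

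At promoters Rvb1 passed the test over Pgk1 at 13 members, 2 higher and 11 lower, where 24.3% of all windows were called, 12.3% higher and 12% lower. The 2 higher were snR14, with 0.49 ± 0.13, and snR64, with 0.47 ± 0.16. snR14 had 194 and 171 CPM in Rvb1 and 161 and 139 CPM in Rvb2 pulldowns, against 124 and 134 CPM in Pgk1 pulldowns and 142, 135 and 134 CPM in the inputs. The lower members were 4 intron-hosted genes (snR59, snR39, snR191 and snR44), 3 genes of the snR72 cluster (snR74, snR75 and snR77), and snR80, snR58, snR13 and snR6. snR59 had the lowest value, -0.99 ± 0.21, with an adjusted p of 0.015, and 58.1 and 77.4 CPM in Rvb1 and 77.3 and 99.7 CPM in Rvb2 pulldowns, against 124 and 139 CPM in Pgk1 pulldowns. At snR6 the Pgk1 pulldowns differed, with 108 and 121 CPM in Rvb1, against 203 and 136 CPM in Pgk1 and 138, 134 and 136 CPM in the inputs.

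**Figure D5:**
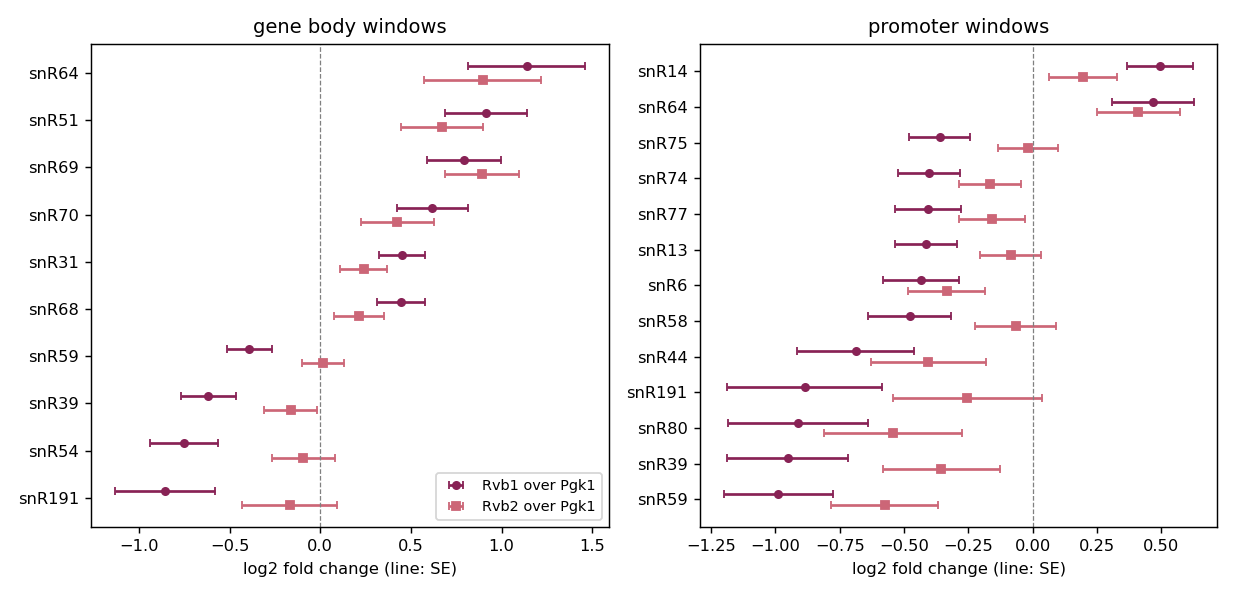
Log2 fold change over the Pgk1 pulldowns (x axis, lines show SE) of the members called for Rvb1, at gene bodies (left) and promoters (right), with the Rvb2 value of the same member beside it. Rvb1 values at gene bodies run from -0.86 at snR191 to 1.14 at snR64, and Rvb2 has no called member.

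These calls depended on single libraries. The shares of all windows called in each fit are not given here, so the counts below speak only of that dependence. Without Rvb1 pulldown 1 both counts were 0, and without Rvb1 pulldown 2 they were 24 at gene bodies and 26 at promoters. Without Pgk1 pulldown 1 they were 14 and 11, and without Pgk1 pulldown 2 they were 0 and 13. The inputs share in the estimate of spread, and the counts were 0 and 4 without the Rvb1 input, 0 and 4 without the Rvb2 input and 2 and 6 without the Pgk1 input. With each pulldown set relative to its own input, both counts were 0. With the pulldowns alone, and with the Rvb inputs averaged, the gene body count was 0 and the promoter count fell but stayed above 0.

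Genes that act on snoRNAs were also measured, from lists chosen with earlier results of these data known. Over all windows 13.8% were called at gene bodies and 24.3% at promoters, and no list was tested against these shares. Of 8 genes of core snoRNA-particle proteins, 1 was higher and 1 lower for Rvb1 over Pgk1 at gene bodies, NHP2 with 0.46 ± 0.14 and GAR1 with -0.51 ± 0.15, both of which code for proteins of box H/ACA particles. Of 9 assembly factor genes, TAH1 was higher, with 0.29 ± 0.09, and HIT1 and RSA1 were lower, with -0.56 ± 0.13 and -0.63 ± 0.19. Of 8 processing factor genes 0 were called at gene bodies and LHP1, the yeast La protein that binds RNA polymerase III transcripts, was higher at its promoter, with 0.66 ± 0.16. Of 4 transcription factor genes ABF1 was lower at its gene body, with -0.50 ± 0.13, and of the 8 host genes RPL7A, NOG2 and RPL7B were lower, with -0.40 ± 0.12, -0.64 ± 0.17 and -0.76 ± 0.15. At promoters GAR1, NOP58 (core proteins), SHQ1 (assembly), RPS22B and NOG2 (hosts) were lower, with -0.44, -0.55, -1.01, -0.75 and -0.94. The gene body medians over own input were -0.38, -0.16 and -0.08 for the core protein genes and -0.17, -0.12 and -0.05 for the assembly factor genes in Rvb1, Rvb2 and Pgk1 pulldowns, below the medians of the snoRNA genes themselves.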

How the data were processed

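Chromatin pulled down with TAP-tagged Rvb1, Rvb2 or Pgk1 and the input of each strain were sequenced on a NextSeq 500 with single reads of 75 cycles, per the labels' protocols. The authors deposited raw read counts in 500 bp windows, 1 at the promoter and 1 at the gene body of each gene. The submitters' processing notes name FastQC, Bowtie2, SAMtools, Picard, deepTools and bedtools, without role or order. No source used here gives the genome build, the window placement or the handling of duplicate and multiply matching reads.

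Counts were tested with edgeR 4.0.16 in R 4.3.3 (filterByExpr, TMM, quasi-likelihood F test, Benjamini-Hochberg adjustment over all windows of a table, called at an adjusted p under 0.05). Pulldowns were set against their own input in a fit of 6 groups, and against the Pgk1 pulldowns in a fit of 4 groups with the 3 inputs as 1 group. The promoter and gene body windows were compared by an interaction with library as a block. Each SE is the absolute log2 fold change divided by the square root of the F statistic. It rests on a spread estimated over all groups of the fit, so it is not the spread between the pulldowns of 1 protein. CPM use TMM-scaled library sizes. The log2 values of single libraries over own input use a prior count of 2, so those of low windows are slightly understated. The fold changes of the fits do not use this prior count. Alternatives were DESeq2 1.42.0, RLE size factors, library totals over both windows, no filter, a mean count of at least 20, a correction for the ceiling of 1148 read positions, a replicate block, pulldowns alone, other groupings of the inputs, members left out by arrangement or class, and each library left out. Only the main edgeR fits of 6 groups, of 4 groups and of the interaction were tried on simulated counts, with 1 Rvb1 comparison each. The simulated counts had the same dispersion in pulldowns and inputs and no ceiling on reads, and the alternatives were not simulated. Figures were drawn with matplotlib 3.10.9.

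Named members are the 3 highest and 2 lowest among members that reach a mean of 20 counts, and every called member (the 10 largest where more were called), for each comparison and window, together with the U3, U14, snR10, snR30, snR52, spliceosomal, intron-hosted and snR72-cluster genes. The members and lists were chosen with earlier results of these data known. Names, neighbouring genes, their orientation and the distances between members come from the R64 RefSeq table, and no coordinate of it is printed, since the build of the counted windows is not known.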

Additional observations from a re-analysis of the deposited data

How the results depend on the processing

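No paired analysis was taken as the main one, because the labels do not say that replicate numbers pair the libraries. Same-numbered pulldowns deviated together, with correlations of 0.727 (Rvb1 and Rvb2), 0.226 (Rvb1 and Pgk1) and 0.348 (Rvb2 and Pgk1) at promoters and 0.698, 0.386 and 0.485 at gene bodies, over 2 numbers. With a replicate block, members called over own input at promoters were 17 for Rvb1 and 8 for Rvb2, with 41.95% and 20.6% of all windows called. At gene bodies they were 53 for Rvb1, 49 for Rvb2 and 10 for Pgk1, with 50.9%, 30.6% and 3.78% of all windows called. Over Pgk1 the block gave 22 at gene bodies for Rvb1 (33.1% of all windows), and 4 at promoters and 10 at gene bodies for Rvb2 (6.71% and 4.05%). Promoter minus gene body gave 24 for Rvb1 and 14 for Rvb2 (53.3% and 33.1%). The block medians over own input were 0.0373 for Rvb1 and 0.0659 for Rvb2 at promoters and 0.46 for Rvb2 at gene bodies.

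Over own input, Rvb1 promoter calls were 1 with RLE size factors and 34 with the inputs pooled (51.8% of all windows). Gene body calls were 41 with the inputs pooled (48.9% of all windows). Rvb1 promoter calls over Pgk1 were 7 with library totals over both windows, 0 as a difference of values over own input, 3 with pulldowns alone, 4 with the Rvb inputs averaged and 6 without intron-hosted and polycistronic members. The gene body calls were 0, 0, 0 and 4 under the last 4 of these settings. Rvb2 over Pgk1 at gene bodies had 1 call with DESeq2 and 1 with pulldowns alone and a block. The other shares of all windows called under these settings are not given here, so these counts show only how far member calls moved. Library totals gave medians over own input of 0.0163 (Rvb1, promoter), 0.0093 (Rvb1, gene body) and 0.0846 (Rvb2, gene body). The Rvb1 promoter median was 0.00050 with the inputs pooled and 0.0828 without intron-hosted and polycistronic members. The log2 share of promoter reads in member windows relative to own input was -0.0171 for Rvb1 and -0.0164 for Rvb2 without those members, and -0.107 for Rvb1 without the spliceosomal genes.

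Leaving out single libraries, the calls over own input ranged from 0 to 6 (Rvb1, promoter), 0 to 7 (Rvb1, gene body) and 0 to 1 (Pgk1, promoter). Over Pgk1 they ranged from 0 to 26 at promoters and 0 to 24 at gene bodies for Rvb1, and from 0 to 3 at promoters for Rvb2. Over the 3 inputs they ranged from 0 to 41 at promoters and 0 to 53 at gene bodies for Rvb1, 0 to 11 and 0 to 25 for Rvb2, and 0 to 17 and 0 to 19 for Pgk1. Medians ranged from -0.0273 to 0.0012 (Rvb1) and 0.0052 to 0.0468 (Rvb2) over own input at promoters, and from -0.228 to 0.0267 at promoters and -0.0817 to 0.248 at gene bodies for Rvb1 over Pgk1. The Pgk1 medians over own input ranged from 0.0141 to 0.175 at promoters and 0.0464 to 0.352 at gene bodies. Over the 3 inputs they ranged from -0.0084 to 0.0242 (Rvb1), -0.0104 to 0.0334 (Rvb2) and 0.0014 to 0.197 (Pgk1) at promoters and from 0.194 to 0.454 for Rvb2 at gene bodies. An own input could not be left out of its own comparison. The shares of all windows called without a library are not given here, so the ranges of calls show only how far member counts moved.

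Signs reversed for few named members. Leaving out pulldown 1 or 2 of the protein over own input, snR54 had 0.0051 and -0.441 (Pgk1, promoter), snR17b 0.0375 and -0.395 (Rvb1, gene body) and snR191 0.0328 and -0.489 (Rvb2, gene body). For Rvb2 over Pgk1 at gene bodies, the values without single libraries ran from -0.478 to 0.0447 for snR191, from -0.343 to 0.0676 for snR54 and from -0.156 to 0.118 for snR59, and without Rvb2 pulldown 1 snR191 had 0.0380 and snR54 0.0508. snR59 had -0.104 with library totals, -0.0153 as a difference of values over own input and -0.000366 with pulldowns alone. The pooled inputs, the averaged Rvb inputs and the block on pulldowns alone were chosen after seeing the data. The cause of these changes was not tested. Pulldowns hold fewer reads than inputs, and inputs stand nearer the ceiling on read positions.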

Other observations

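Other stable non-coding RNA genes were read from the same tables. SCR1, the RNA of the signal recognition particle, had gene body log2 values over own input of 1.57 in Rvb1, 1.47 in Rvb2 and 1.46 in Pgk1 pulldowns. The Pgk1 value of SCR1 pooled 667 CPM in pulldown 1 and 196 CPM in pulldown 2, against 156 CPM in the Pgk1 input. RPR1, the RNA of nuclear RNase P, had 1.23, 1.13 and 0.59, NME1, the RNA of RNase MRP, had 0.43, 0.59 and 0.52, and LSR1, the U2 spliceosomal RNA, had 0.32, 0.11 and 0.03. None of these passed the test against own input.

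The 54 members with their own promoter were also split by the orientation of the next gene downstream in the R64 table, 27 in tandem and 27 convergent. The gene body medians over own input were 0.38 and 0.30 for Rvb1, 0.42 and 0.23 for Rvb2 and 0.17 and 0.21 for Pgk1, tandem before convergent. Over the Pgk1 pulldowns they were 0.24 and 0.04 for Rvb1 and 0.20 and 0.01 for Rvb2. A split by the next gene upstream gave 26 in tandem and 28 divergent. Tandem before divergent, the gene body medians over own input were 0.47 and 0.51 in Rvb1 pulldown 1 and 0.20 and 0.27 in pulldown 2. They were 0.47 and 0.55, then 0.23 and 0.25, in the Rvb2 pulldowns. In the Pgk1 pulldowns they were 0.43 and 0.38, then 0.04 and 0.05. Neither split was tested.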
